A study of Mus musculus with 15 samples.

Results

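Genes at successive steps of haem and iron handling, *Alas1*, *Hmox1* and *Ftl1*, lay below 0 on average in the comparison of treated with untreated cells of a mouse lymphoid ES (embryonic stem) cell line. They are 3 of the 9834 genes that carry a symbol on the array, and each is measured by 1 of its 20205 cDNA probes. The genes were selected on their mean log2 ratio over these arrays, which earlier results placed below 0. Their log2 ratios are therefore given as a description, with no test, and the tests concern measures that did not enter the selection. The samples were RNA of the treated line and RNA of the untreated line, hybridised together on each of 15 two-colour arrays. The treated RNA carried Cy5 on 8 arrays, called the Cy5 arrays and numbered 1 to 8 in the titles, and Cy3 on 7 dye swaps, numbered 9 to 15. Neither the agent, its dose and duration, the origin of the line nor the number of cultures is given in the labels. Their protocol text mentions organs and a control pool from animals, which does not match a cell line, and the channel names were followed here. Where dye swaps repeat the same RNA, p-values measure only the spread between arrays and are too small.

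The values are deposited log2 ratios of the channels, and a value below 0 is read here as a lower RNA level in the treated cells. That reading rests on 1999 placeholder values with an absolute log2 ratio above 10, which mark an empty channel. The 1117 placeholders of the Cy5 arrays were all positive and the 882 of the dye swaps all negative. This pattern is left when the swaps have already been turned to treated over untreated and the empty channel is Cy3. Unturned swaps would leave the same signs if the empty channel were always the untreated one. The file alone does not settle it, so the estimates and counts of *Alas1*, *Hmox1* and *Ftl1* and the counts and medians of the gene lists are also given with the swaps turned. Values of single other genes are given as deposited. Each array held measured values for 19213 to 19973 probes. The median Pearson correlation over probes was 0.091 between arrays with treated RNA in Cy5, 0.034 between dye swaps and -0.058 between arrays of opposite orientation. As deposited, 4 of 9720 genes had a limma adjusted p under 0.05 for the mean of both orientations, and 254 did with the swaps turned. At an unadjusted p under 0.05 the shares were 7.02% and 19.5%. These counts cannot tell a dye effect from swaps that still had to be turned. Signal over background is unknown without scanner intensities. For the same reason the identity of the line could not be checked against its markers, since a ratio gives no level. No array of *Alas1*, *Hmox1* or *Ftl1* was missing or a placeholder. None of their values was dim, meaning equal within 0.0015 to the array's constant plus the log2 of a fraction with numerator and denominator of at most 6, as held for 3.61 to 16.1% of the values of an array.

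Haem is made in a pathway that begins and ends in the mitochondrion, and its entry enzyme, 5-aminolevulinate synthase, sets the rate. *Alas1* encodes the form found in most cells and *Alas2* the form of red cell precursors. Haem oxygenase, encoded by *Hmox1*, opens the haem ring and releases iron, carbon monoxide and biliverdin, which biliverdin reductase converts to bilirubin. Released iron is stored in ferritin, a shell built of heavy chains from *Fth1* and light chains from *Ftl1*. In mammals, haem itself represses *Alas1* and relieves the repression of *Hmox1* and the ferritin genes by the factor BACH1, while NRF2 activates *Hmox1* and ferritin under oxidative stress.

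Promoter sequences from RefSeq (GRCm38.p6) were matched by symbol to 2 of the 3 genes, *Alas1* and *Ftl1*, and not to *Hmox1*. *Alas1* has 2 annotated starts, and 2 matches to the NRF-1 consensus lie between them. They begin at bases 1 and 30 counted from the upstream start, which are bases -224 and -195 relative to the downstream start. Both strands were searched, and 4.60% of 32851 promoter windows of 300 bases hold at least 1. NRF-1 is a factor of mitochondrial gene expression, encoded by *Nrf1* and distinct from NRF2, and its own probes are described with the regulators. The sites are shown in capitals with their neighbouring bases, on the minus strand.
Alas1, chr9:106247935-106247964: gcttcggcgcGCGCGTGCGCgcggcaggcc
Alas1, chr9:106247906-106247935: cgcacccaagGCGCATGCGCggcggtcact
The 250 bases before the annotated start of *Ftl1* (chr7:45459887-45460136, minus strand) are shown because they were searched for the sites through which NRF2, BACH1 and AP-1 bind. Neither the core TGACNNNGC, held by 12.4% of all windows, nor TGANTCA, held by 7.81%, is among these letters on either strand, which says nothing of sites outside the window. Capitals mark the CCAAT box, here as its complement ATTGG, which starts at bases -78 and -34 and is held by 37.4% of windows. A TATAAA, held by 13.6%, starts at base 18 after the annotated start. The E-box CACGTG, held by 7.15%, was also searched and is in none of the *Alas1* and *Ftl1* windows. No 2 of the matches overlap.
Ftl1, chr7:45459887-45460136: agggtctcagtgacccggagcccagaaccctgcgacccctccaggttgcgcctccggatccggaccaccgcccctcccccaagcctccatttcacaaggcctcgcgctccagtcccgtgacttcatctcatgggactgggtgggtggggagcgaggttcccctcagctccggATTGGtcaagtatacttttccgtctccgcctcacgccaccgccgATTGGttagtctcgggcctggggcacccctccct

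*Alas1* was below 0 on all 15 arrays and varied little. With the treated RNA in Cy5, its log2 ratio was lowest at -0.71 on array 3, had a median of -0.40 and was highest at -0.18 on array 7. With the treated RNA in Cy3 it was lowest at -0.42 on array 15, had a median of -0.28 and was highest at -0.17 on array 11. The orientations overlapped, and the lowest value of all came from array 3. The mean was -0.39 ± 0.17 (SD, n = 8) for Cy5 and -0.28 ± 0.08 (SD, n = 7) for Cy3. Over all arrays it was -0.34 ± 0.14 (SD, n = 15), a ratio of 0.791. Weighting both orientations equally, in what is called the treatment estimate, gave -0.33 ± 0.05 (SE, limma). Of the 8297 genes with values on all 15 arrays, 1.34% had a smaller SD across arrays, where the median SD was 0.35. Only 2 of these genes (0.0241%) were below 0 on every array, the other being *Smc2*, a condensin subunit named here after its values were seen. With the swaps turned, *Alas1* was below 0 on 8 of 15 arrays, and 0.0964% of genes were below 0 on all. On single arrays *Alas1* stood between percentiles 6 and 30.9 of all probes, so no array placed it among the extremes.

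*Hmox1* had a lower mean than *Alas1* and a spread several times as wide. With the treated RNA in Cy5, its log2 ratio was lowest at -2.03 on array 3, had a median of -0.24 and was highest at 0.19 on array 1. With the treated RNA in Cy3 it was lowest at -0.98 on array 10, had a median of -0.32 and was highest at 0.25 on array 12. It was below 0 on 12 of 15 arrays, the exceptions being arrays 1, 11 and 12, and 2.27% of genes with all values were below 0 on 12 or more. With the swaps turned it was below 0 on 9 arrays. The mean was -0.54 ± 0.71 (SD, n = 8) for Cy5 and -0.33 ± 0.45 (SD, n = 7) for Cy3, against an SD of 0.59 over all 15 arrays. The treatment estimate was -0.44 ± 0.15 (SE, limma) and stood at -0.33 without array 3, on which *Hmox1* was at percentile 0.574 of all probes. On arrays 7, 8 and 10 it lay between -0.99 and -0.78, so values well below 0 were not limited to array 3.

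As deposited, *Ftl1* had the estimate nearest 0 of the 3 genes and differed most between orientations, and with the swaps turned its estimate was the farthest from 0. With the treated RNA in Cy5, its log2 ratio was lowest at -0.33 on array 8, had a median of -0.13 and was highest at 0.20 on array 5. With the treated RNA in Cy3 it was lowest at -0.92 on array 15, had a median of -0.36 and was highest at -0.10 on array 9. Of the Cy5 arrays, 5 of 8 were below 0, the exceptions being arrays 4, 5 and 6, and of the dye swaps 7 of 7 were, which makes 5 of 15 arrays below 0 with the swaps turned. The mean was -0.09 ± 0.19 (SD, n = 8) for Cy5 and -0.38 ± 0.27 (SD, n = 7) for Cy3. The treatment estimate was -0.24 ± 0.06 (SE) and was -0.19 without array 15, which held the lowest value. The ferritin light chain has many processed copies in the mouse genome, and a cDNA probe cannot tell their transcripts from that of *Ftl1*.

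**Figure D1:**
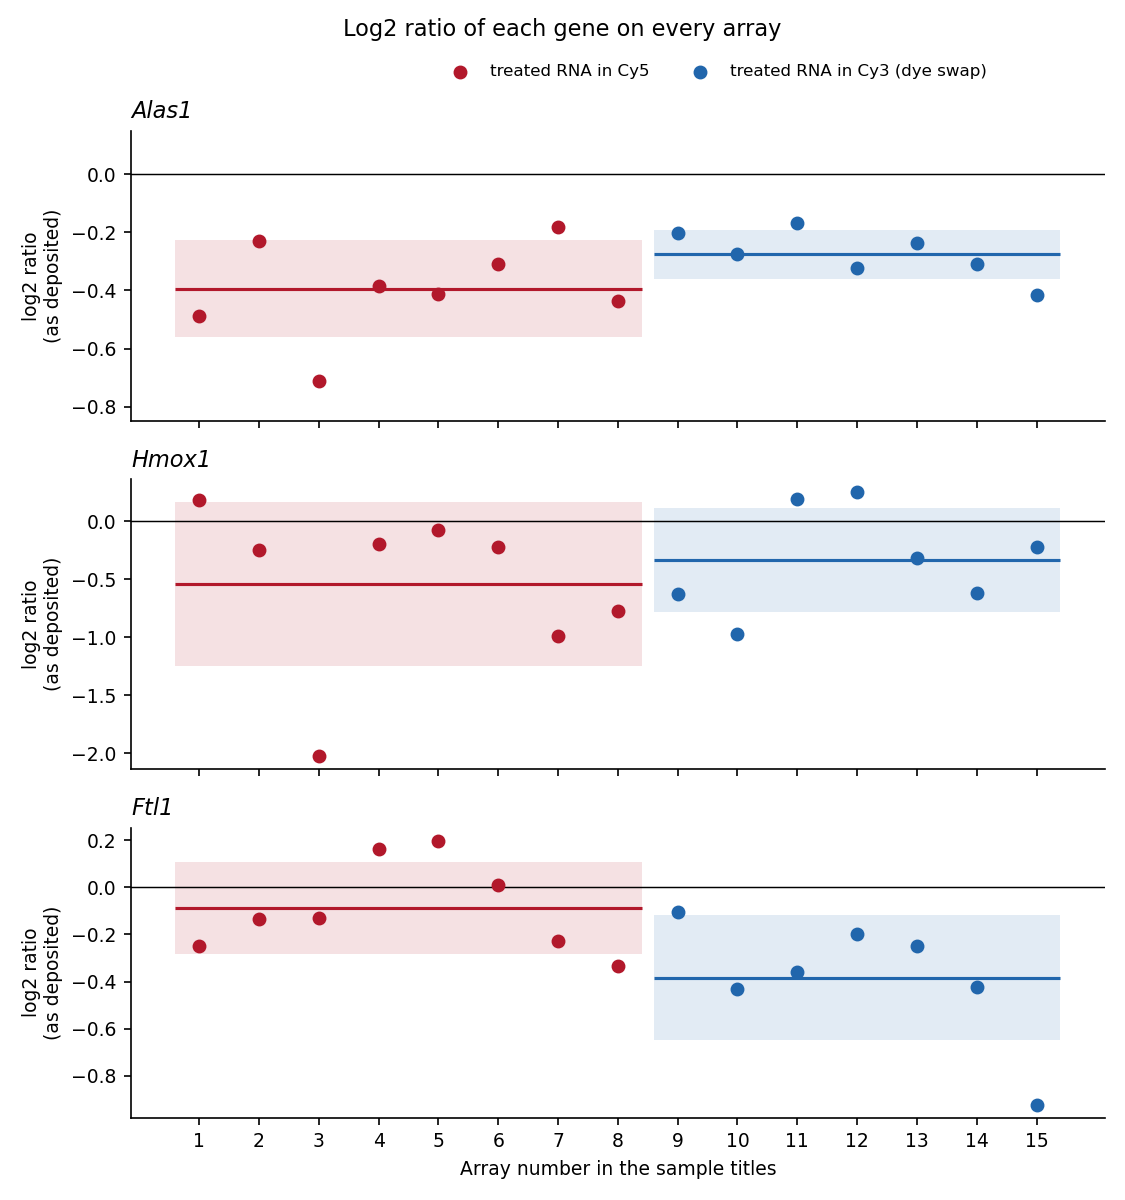
Deposited log2 ratio of Alas1, Hmox1 and Ftl1 (vertical axes, which differ in range) on each of the 15 arrays (horizontal axis, number in the titles). Points are arrays, red with the treated RNA in Cy5 and blue with it in Cy3, lines are the means of each orientation and bands are 1 SD. Alas1 is below 0 on all 15 arrays, Hmox1 and Ftl1 on 12 each, with the lowest Hmox1 value on array 3 and the lowest Ftl1 value on array 15.

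The dye effect is 0.5 times the difference between the orientations (treated in Cy5 minus treated in Cy3), and it did not enter the selection of the genes. It was 0.15 ± 0.06 for *Ftl1* (SE, n = 15 arrays; limma adjusted p = 0.215), -0.11 ± 0.15 for *Hmox1* (adjusted p = 0.735) and -0.06 ± 0.05 for *Alas1* (adjusted p = 0.526). None passed, while 254 of 9720 genes (2.61%) passed for this component, so differences between the orientations were detectable on these arrays. If the dye swaps still had to be turned, these numbers would be the treatment estimates. *Ftl1* would then be above 0, and *Alas1* and *Hmox1* would be nearer to it than as deposited, *Hmox1* at 0.00014 without array 3. The sign of *Ftl1* and the sizes of *Alas1* and *Hmox1* thus depend on how the deposited ratio is read.

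**Figure D2:**
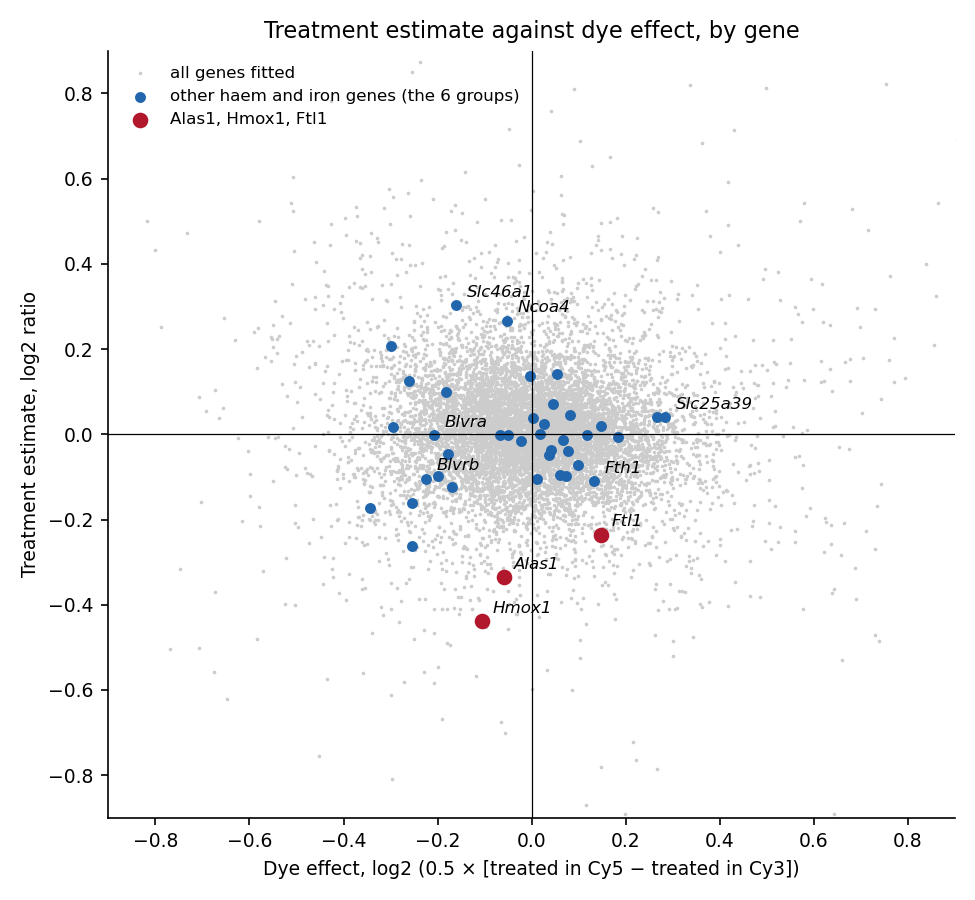
Treatment estimate (vertical axis, log2) against dye effect (horizontal axis, log2) for the 9720 genes fitted, with 23 genes outside the axes. Red points are Alas1 at -0.33, Hmox1 at -0.44 and Ftl1 at -0.24, blue points are the other genes of haem synthesis, breakdown and transport and of iron storage, uptake and sensing, and Blvra and Slc25a39 lie far from 0 on the dye axis only.

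With the ratios as deposited, no correlation between the 3 genes from array to array passed its test. The r and rho over 15 arrays were not computed with the swaps turned, and they depend on that reading. Within an orientation, turning leaves r unchanged. All 3 lay below 0 together on 9 of 15 arrays, 4 of them Cy5 arrays and 5 dye swaps. The genes were chosen for lying below 0, so this count does not show whether they move together. With the swaps turned, only the 4 Cy5 arrays would hold all 3 below 0, as *Alas1* is below 0 on every swap as deposited. Over 15 arrays, the correlation of *Alas1* with *Hmox1* was r = 0.41 (permutation p = 0.129, adjusted p = 0.387 over 3 pairs) and rho = -0.054 (permutation p = 0.853, adjusted p = 0.853). Without arrays 1 and 3, the farthest from the median of *Alas1*, it was r = -0.11, so the positive r rests on array 3, where both genes were lowest. Within the orientations it was 0.47 for Cy5 and 0.0078 for Cy3. *Alas1* and *Ftl1* gave r = -0.047 (permutation p = 0.860, adjusted p = 0.880) and rho = -0.052 (permutation p = 0.853, adjusted p = 0.853), with r = 0.030 without arrays 1 and 3. Within the orientations r was 0.031 for Cy5 and 0.73 for Cy3, with few arrays in each. *Hmox1* and *Ftl1* gave r = 0.040 (permutation p = 0.880, adjusted p = 0.880) and rho = 0.12 (permutation p = 0.670, adjusted p = 0.853), with r = 0.19 without arrays 3 and 7, 0.32 for Cy5 and 0.024 for Cy3. These permutation tests were two-sided with 100000 resamples and take the arrays as independent, which the labels do not settle.

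The other enzymes of haem synthesis had treatment estimates on both sides of 0. Of the 8 listed besides *Alas1*, 5 were tested and 0 passed limma's test, 3 above 0 and 2 below, with a median treatment estimate of 0.017. Turning the swaps put 3 above 0 and 2 below, at a median of 0.077. *Alad*, which acts directly after *Alas1*, was at -0.04 ± 0.09 (SE), and *Uros* at 0.02 ± 0.09. *Ppox* was at 0.05 ± 0.07, and *Fech*, which inserts the iron, at -0.0022 ± 0.075 over 2 probes. *Alas2* was at 0.21 ± 0.28 with values on 13 arrays, 5 of them dim, between -1.41 and 2.68. Differences between *Alas1* and these genes were not tested, because *Alas1* was chosen for its value. Over all 9720 genes the median was 0.0054, 48% of genes were below 0 and 4 (0.0412%) passed in either direction. With the swaps turned the median was -0.0034, 50.8% were below 0 and 19.5% had an unadjusted p under 0.05.

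Downstream of *Hmox1* act the biliverdin reductases *Blvra* and *Blvrb*, of which *Blvra* passed for the dye effect and neither passed for the treatment estimate. *Blvra* lay between -0.40 and 0.037 with the treated RNA in Cy5 (median -0.22) and between 0.047 and 0.40 with it in Cy3 (median 0.23), and the orientations did not overlap, as for 1.54% of the genes with values on all arrays. Its dye effect was -0.21 ± 0.05 (SE; limma adjusted p = 0.0416), and its treatment estimate was -0.0027 ± 0.051 (adjusted p = 0.995). Of its 2 probes, one carried this, at a dye effect of -0.36 (limma adjusted p = 0.0460 over probes, where 2.74% of all probes passed), and the other was at -0.05 (adjusted p = 0.693). *Blvrb* lay below 0 on 7 of 8 Cy5 arrays and 2 of 7 swaps. Its dye effect of -0.22 ± 0.08 (adjusted p = 0.131) and its treatment estimate of -0.10 ± 0.08 (adjusted p = 0.800) did not pass. Of the 3 genes listed besides *Hmox1*, 2 were tested and 2 were below 0 as deposited, at a median of -0.053. With the swaps turned, 2 were below 0, at a median of -0.22, and 2 had an unadjusted p under 0.05, against 19.5% of all genes. The dye effect of *Blvra* would then be its treatment estimate and would pass.

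Genes of haem transport and binding scattered on both sides of 0. Of 20 listed, 13 were tested, 6 above 0 and 7 below, with a median of -0.0018 and 0 passing, and with the swaps turned 8 lay above 0 and 5 below, at a median of 0.018. *Slc46a1*, a folate transporter that also carries haem, was highest at 0.30 ± 0.11 (SE; limma adjusted p = 0.561) and ranged from -0.20 to 1.46, the top value being array 15. *Hpx*, the plasma haem carrier, was at 0.10 ± 0.11. *Slc48a1*, which moves haem out of lysosomes, was lowest at -0.16 ± 0.09 (adjusted p = 0.752), followed by *Lrp1*, the receptor for haem bound to haemopexin, at -0.11 ± 0.11. *Slc25a39*, a mitochondrial carrier, lay above 0 on 8 of 8 Cy5 arrays and 1 of 7 swaps, and its dye effect of 0.28 ± 0.06 passed (limma adjusted p = 0.0253).

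In iron storage, both ferritin chains had a mean below 0 and the ferritin receptor of autophagy above it. Of the 4 genes tested besides *Ftl1*, 0 passed and 3 were below 0 as deposited, at a median of -0.059. An unadjusted p under 0.05 in limma's test was found for 2, 1 below 0 (*Fth1*) and 1 above (*Ncoa4*), against 7.02% of all genes. With the swaps turned, 2 of these 4 were below 0, at a median of 0.023, and 1 had an unadjusted p under 0.05, against 19.5% of all genes. *Fth1* lay between -0.17 and 0.21 with the treated RNA in Cy5 (median 0.028) and between -0.40 and 0.051 with it in Cy3 (median -0.29). Its treatment estimate was -0.11 ± 0.05 (SE; limma adjusted p = 0.704). Of its 4 probes, 3 were at -0.22 ± 0.09, -0.16 ± 0.06 and -0.15 ± 0.06, and the remaining one was at 0.09 ± 0.15. The probe at -0.15 passed for the dye effect, at 0.34 ± 0.06 (limma adjusted p = 0.0138 over probes). The dye effect was 0.13 ± 0.05 for *Fth1* (adjusted p = 0.159), beside 0.15 ± 0.06 for *Ftl1*, both with lower ratios on the dye swaps. *Ncoa4*, which delivers ferritin to the lysosome for iron release, was above 0 on 12 of 15 arrays, from -0.11 to 0.81 with a median of 0.19. Its estimate was 0.27 ± 0.07 (adjusted p = 0.397), with its 2 probes at 0.22 ± 0.06 and 0.31 ± 0.15. The iron chaperones *Pcbp1* and *Pcbp2* were at -0.07 ± 0.07 and -0.05 ± 0.08.

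The ferritin chains were also compared array by array with the ratios as deposited, a pair chosen after their values were seen. *Ftl1* and *Fth1* were both below 0 on 9 arrays, and their correlation over 15 arrays was r = 0.23 (permutation p = 0.423) and rho = 0.45 (permutation p = 0.0955). Array 15 set them apart, with *Ftl1* at -0.92 and *Fth1* at 0.051. Without arrays 5 and 15 r was 0.62, but it was 0.079 within Cy5 and -0.57 within Cy3. With those arrays also left out within the orientations, r was 0.26 over 7 Cy5 arrays and 0.91 over 6 dye swaps, so the negative value among the swaps rests on array 15.

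**Figure D3:**
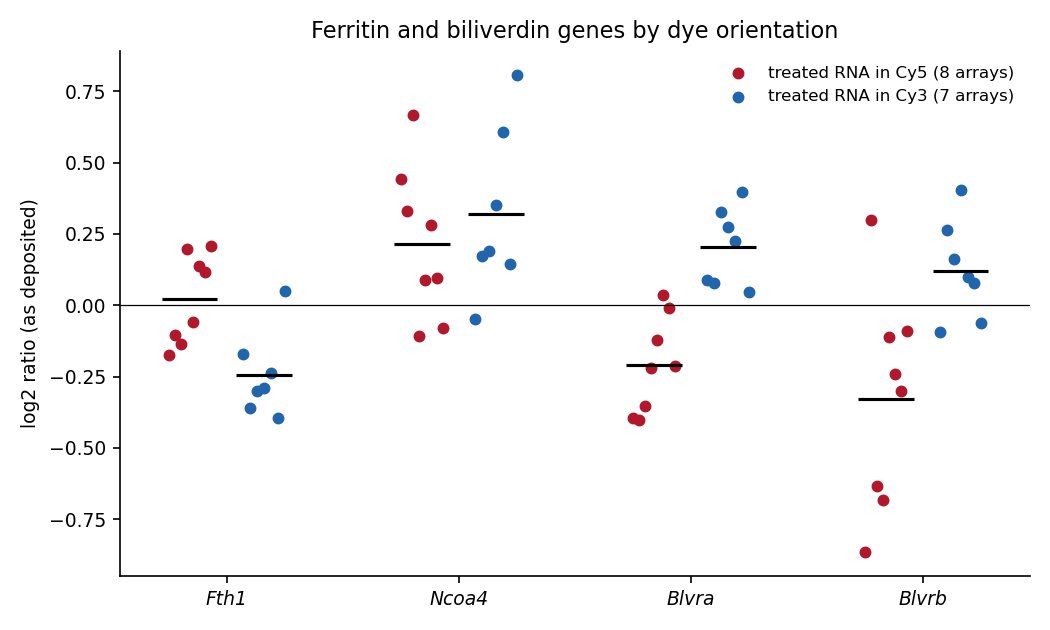
Deposited log2 ratio (vertical axis) of Fth1, Ncoa4, Blvra and Blvrb on each array, red with the treated RNA in Cy5 (8 arrays) and blue with it in Cy3 (7 arrays), with bars at the means. Fth1 has 6 of 7 dye swaps below 0, Ncoa4 lies mostly above 0 in both orientations, and the orientations of Blvra do not overlap.

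Iron uptake, export and sensing genes gave no call. Of 24 uptake and export genes, 12 were tested, 4 above 0 and 8 below, with a median of -0.0091, and with the swaps turned 6 lay above and 6 below, at a median of -0.0099. *Cybrd1*, a ferric reductase of the cell surface, was lowest at -0.26 ± 0.13 (SE; limma adjusted p = 0.712) and *Slc39a14*, a zinc and iron importer, followed at -0.17 ± 0.15. The ferroxidase *Cp* was highest at 0.14 ± 0.12 and the iron importer *Slc11a2* was at 0.13 ± 0.15. Of the iron sensors, *Aco1*, whose protein binds iron-responsive elements when iron is scarce, was at 0.14 ± 0.10 and below 0 on 4 of 15 arrays. *Herc2*, a ubiquitin ligase, was at 0.02 ± 0.09.

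**Figure D4:**
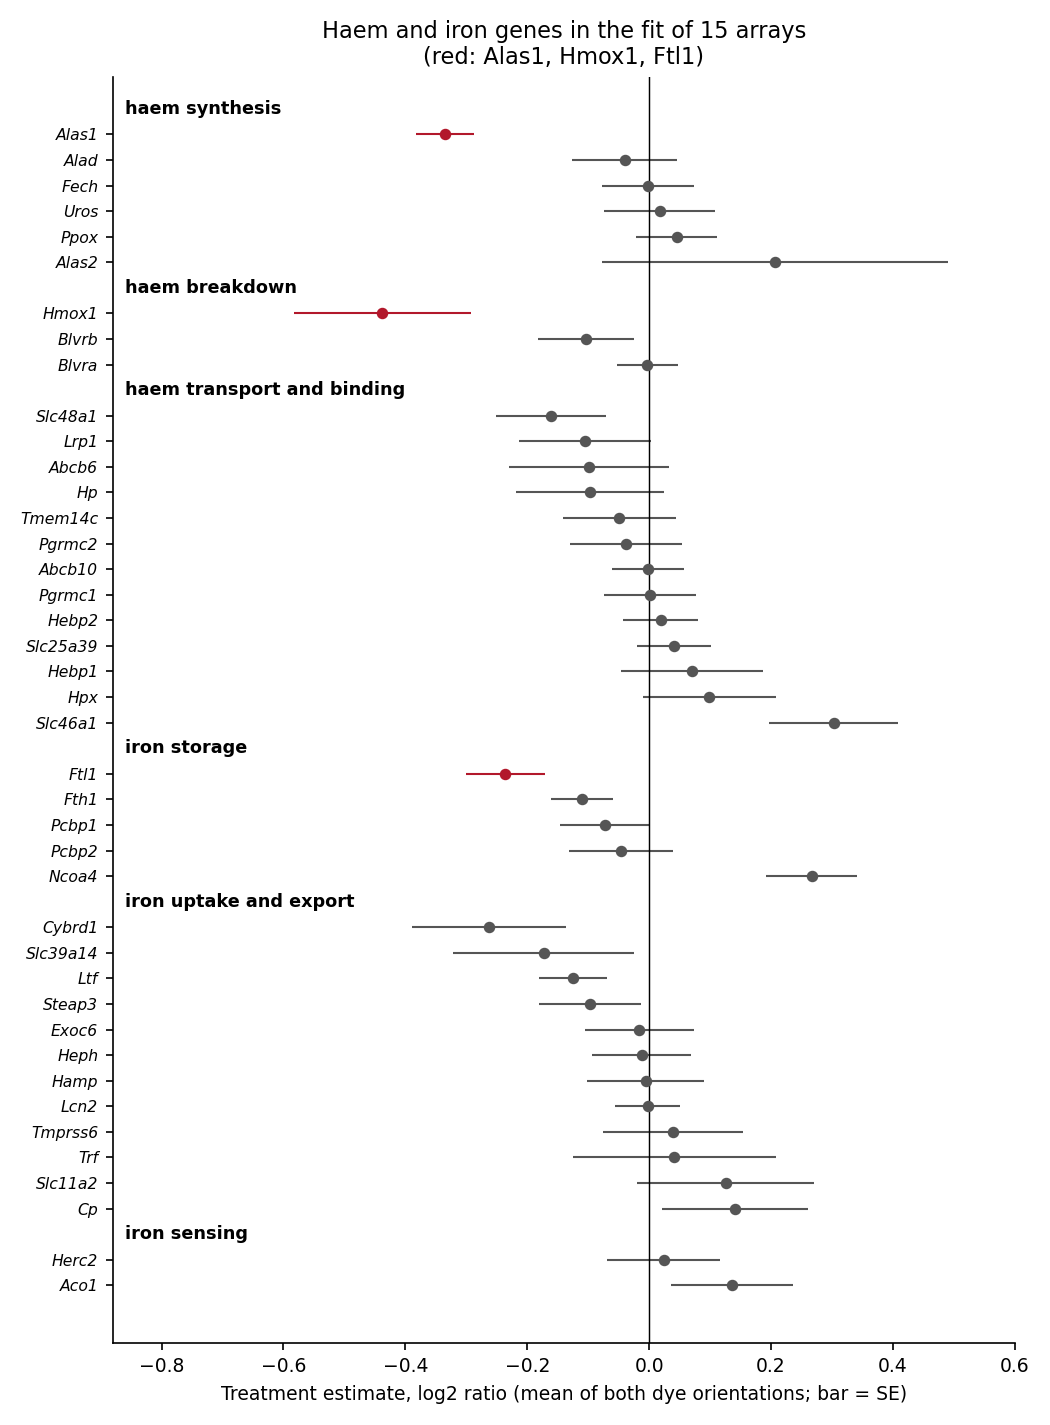
Treatment estimate (horizontal axis, log2, mean of both orientations) with its SE for every tested gene of 6 haem and iron groups. Red marks Alas1, Hmox1 and Ftl1, which were chosen for lying below 0. Most other genes lie within 0.2 of 0, and Slc46a1 and Ncoa4 are highest at 0.30 and 0.27 among those with an SE under 0.2.

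None of the regulators of these genes passed for the treatment estimate. Of 19 listed, 15 were tested, 12 below 0 and 3 above, with a median of -0.058, where 48% of all genes were below 0. Turning the swaps left 8 below 0 and 7 above, at a median of -0.081. *Nfe2l2*, which encodes NRF2, was at 0.06 ± 0.23 (SE), and *Keap1*, which targets NRF2 for degradation, at -0.19 ± 0.15 (limma adjusted p = 0.797). *Mafk*, a small partner of both NRF2 and BACH1, was lowest at -0.31 ± 0.27, followed by the coactivator *Ppargc1b* at -0.20 ± 0.10. *Ppargc1a*, a coactivator that induces *Alas1* in liver, was highest at 0.12 ± 0.10. *Nrf1*, the factor whose site is shown for *Alas1*, was at -0.15 ± 0.06 (adjusted p = 0.662). Of its 3 probes, one was at 0.07 ± 0.06 and another at -0.14 ± 0.09, so the probes disagree in sign. The remaining one had too few values on the dye swaps to be fitted alone. It still enters the gene mean where it has a value, and the gene estimate lies below both fitted probes. *Nrf1* lay between -0.32 and 0.30 with the treated RNA in Cy5. On the swaps it lay between -0.62 and -0.083, and 11 of 15 arrays were below 0. *Nrf1* and *Esrra* are named outside the fixed rule. *Esrra*, a nuclear receptor of mitochondrial genes, passed for the dye effect at 0.26 ± 0.06 (adjusted p = 0.0331) and had a treatment estimate of 0.02 ± 0.06.

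Targets of NRF2 other than *Hmox1* and the ferritins did not pass either. Of 25 listed, 18 were tested, 12 below 0 and 6 above, with a median of -0.053, and 3 had an unadjusted p under 0.05 where 7.02% of all genes did. Turned, 9 lay below 0 and 9 above, at a median of -0.0048. *Gpx2*, a glutathione peroxidase, was lowest at -0.41 ± 0.24 (SE), and *Tkt*, transketolase, was at -0.19 ± 0.07 (limma adjusted p = 0.561). *Ephx1*, an epoxide hydrolase, was highest at 0.41 ± 0.15 with values on 10 arrays, and the carbonyl reductase *Cbr3* was at 0.04 ± 0.06. The mitochondrial iron-sulphur genes had 8 of 19 above 0 and 11 below, with a median of -0.023, and with the swaps turned 9 above and 10 below, with a median of -0.0064. *Iscu*, the scaffold of cluster assembly, was at -0.27 ± 0.16 and *Nfu1*, a later carrier of clusters, at -0.18 ± 0.09. *Ndufab1*, an acyl carrier protein, was highest at 0.45 ± 0.23 with values on 14 arrays, and *Ciao3* was at 0.07 ± 0.07. Proteins that carry haem had 10 of 17 above 0 and 7 below, with a median of 0.017, and with the swaps turned 11 above and 6 below, with a median of 0.036. The cytochromes *Cyb5b* and *Cyb5a* were lowest at -0.17 ± 0.07 and -0.13 ± 0.06, and *Cygb*, a globin, was highest at 0.23 ± 0.26, followed by the respiratory chain subunit *Sdhd* at 0.07 ± 0.09.

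Over all haem and iron lists without *Alas1*, *Hmox1* and *Ftl1*, 106 of 170 genes were tested. Of these, 63 (59.4%) were below 0 and 43 above, with a median of -0.020, and 0 passed limma's test for the treatment estimate. With the swaps turned, 50 (47.2%) were below 0 and 56 above, with a median of 0.0049, so the lean below 0 was not kept. At an unadjusted p under 0.05 there were 10 (9.43%), 7 below 0 and 3 above, against 7.02% of all genes, and with the swaps turned 24 (22.6%), against 19.5% of all genes. For the dye effect 5 passed, 4 above 0 and 1 below, beside 2.61% of all genes.

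Macrophages recycle haem and are rich in *Hmox1* and ferritin, and red cell precursors make most haem, so markers of these cells are given beside the values. Of 18 macrophage markers tested, 10 were below 0, with a median of -0.019, and 0 passed, and with the swaps turned 7 were below 0, with a median of 0.023. At an unadjusted p under 0.05 there were 3 (16.7%), 2 below 0 and 1 above, against 7.02% of all genes. With the swaps turned there was 1 (5.56%), against 19.5% of all genes. *C1qb* was lowest at -0.18 ± 0.08 (SE) and *Mpeg1* next at -0.17 ± 0.06, while *Fcgr1* was highest at 0.28 ± 0.18 and *Cd83* at 0.17 ± 0.07. Of 12 neutrophil markers, 11 were below 0, with a median of -0.11, and 0 passed. Of these, 5 (41.7%), all below 0, had an unadjusted p under 0.05, against 7.02% of all genes. With the swaps turned, 5 (41.7%) did, against 19.5% of all genes. The list was chosen with earlier results of these data known, so these shares are a description. *Camp* was at -0.30 ± 0.09 and *Mmp8* at -0.23 ± 0.07 (limma adjusted p = 0.496 and 0.430), and *Cebpe* was highest at 0.0031 ± 0.059. As deposited, the median of the neutrophil list was below 0 on 12 of 15 arrays and ranged from -0.24 to 0.082. With the swaps turned, 5 of the 12 were below 0 and 7 above, the median over genes was 0.047, and the list's median was below 0 on 7 of 15 arrays. The part of such cells in these values was not tested, and fewer cells of a type cannot be told apart from less RNA per cell. The 11 red cell markers tested had a median of 0.017, with 6 on the positive and 5 on the negative side, and with the swaps turned 4 were above 0 and 7 below, at a median of -0.016. *Hba-a1*, alpha globin, was at -0.07 ± 0.06 over 6 probes, *Klf1* at -0.07 ± 0.29, *Slc4a1* at 0.09 ± 0.23 and *Nfe2* at 0.34 ± 0.22.

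Lymphoid, pluripotency and fibroblast markers were close to 0 as groups, and 0 passed. An unadjusted p under 0.05 was found for 2 lymphoid (13.3%), 1 pluripotency (10%) and 1 fibroblast marker (5.88%), against 7.02% of all genes. With the swaps turned the shares were 33.3%, 20% and 5.88%, against 19.5% of all genes. Of 15 lymphoid markers, 10 were above 0, with a median of 0.053, and with the swaps turned 6 were, with a median of -0.033. *Ikzf1* was highest at 0.56 ± 0.25 (SE), followed by *Ptprc* at 0.19 ± 0.05, with *Cd22* at -0.32 ± 0.39 and *Cd8a* at -0.08 ± 0.13 lowest. Of 10 pluripotency markers, 6 were above 0, with a median of 0.060, and with the swaps turned 4 were, with a median of -0.014. *Esrrb* was at 0.45 ± 0.17, *Lin28a* at 0.11 ± 0.09, *Zfp42* at -0.09 ± 0.17 and *Pou5f1* at -0.39 ± 0.22. Feeder cells are often fibroblasts, and 12 of 17 fibroblast markers lay above 0, at a median of 0.048, and with the swaps turned 8 did, at a median of -0.0026. *Dcn* was highest at 0.21 ± 0.17 and *Pdgfrb* next at 0.20 ± 0.10, while *S100a4* was lowest at -0.16 ± 0.05 (limma adjusted p = 0.427), below 0 on 14 of 15 arrays, and *Col1a1* was at -0.15 ± 0.16.

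The genes whose pattern over the 15 arrays was most like each gene were read from Pearson's r among the 8296 other genes with values on all arrays. With so many genes and 15 arrays that share orientations, these are descriptions without a p-value. Most like *Alas1* were *Phactr2* at r = 0.87, *Ggact* at 0.86 and *P2ry2* at 0.82. Most like *Hmox1* were *Patl1* at 0.82, *Wnt6* at 0.81 and *Ctse* at 0.80, each close to 0 in its own treatment estimate (-0.00086, -0.0043 and -0.04). Most like *Ftl1* were *Gpaa1* at 0.91, *Glud1*, glutamate dehydrogenase, at 0.87 and *Inppl1* at 0.87. *Glud1* followed *Ftl1* from array to array but lay above 0, at 0.23 ± 0.08 (SE; limma adjusted p = 0.598). With the mean of each orientation removed, these correlations were between 0.78 and 0.86. They were not recomputed without single arrays, so an r can rest on 1 array, nor with the swaps turned. *Hmox1* was at -2.03 on array 3 and *Ftl1* at -0.92 on array 15, each far below its other values.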

How the data were processed

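Total RNA of the treated and of the untreated line was labelled indirectly with Cy3 or Cy5 and hybridised together, per the labels' protocols. The authors deposited 1 log2 ratio per probe and array; its scale follows from the values. Normalization, background correction, spot filter and direction: not given in the sources used here. Values with an absolute log2 above 10 were set missing. Of 20205 probes, the platform annotation names 1 gene for 13891, several for 5 and none for 6309, and 13855 symbols were updated through a RefSeq table. Probes of a gene were averaged. Genes with at least 4 values per orientation were fitted with limma 3.58.1 in R 4.3.3 (lmFit, eBayes, terms for treatment and dye), two-sided, with Benjamini-Hochberg adjustment over all genes at 0.05. On simulated data with 9720 genes, the fit called 77 of 100 genes shifted by 0.5 and 98 of 100 shifted by 1 (log2), with 10 false calls among 9520. The number of arrays limits the precision, with a median SE of 0.090 per gene. Correlations over arrays used permutation tests (numpy 2.4.6).

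The genes and lists were chosen with earlier results of these data known. Named genes are *Alas1*, *Hmox1* and *Ftl1*, a fixed set of partners where measured, the 2 highest and 2 lowest of each list, and the 3 genes most alike to each over the arrays. *Hmox2*, *Tfrc*, *Ireb2* and *Bach1* were not analysed here. Alternatives changed the centring, scaling, normalization, filters, dye term, placeholders, dim values, weights, probes and arrays.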

Additional observations from a re-analysis of the deposited data

Results flagged for a closer look

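*Ftl1* on array 15 was at -0.92, far from the other 6 dye swaps, which lay between -0.43 and -0.10. Its gap to the nearest swap was 0.601 of the range of the swaps, above Dixon's limit of 0.568 for 7 samples. It was the only one of 6 such gap tests, for 3 genes in 2 orientations, to exceed its limit, and chance exceeds it in about 1 in 20 groups. Array 15 also held the highest value of *Slc46a1* (1.46) and of *Ncoa4* (0.81). Its values were widely spread, with an SD over probes of 0.738, where the arrays ranged from 0.348 (array 13) to 0.817 (array 7). In percentiles of all probes, *Ftl1* stood at 3.26 on array 15 and between 7.54 (array 11) and 40.9 (array 9) on the other swaps.

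The orientations differed, by limma's test of the dye effect, for 5 of the 109 haem and iron genes fitted. Over all genes, 254 of 9720 (2.61%) passed the same test. The dye effect was -0.21 for *Blvra*, 0.28 for *Ciao1*, which helps place iron-sulphur clusters on cytosolic proteins, and 0.38 for *Cybb*, the haem-binding subunit of the phagocyte oxidase. It was 0.26 for *Esrra* and 0.28 for *Slc25a39*. *Ciao1* lay above 0 on 7 of 8 Cy5 arrays and 0 of 7 swaps, and *Cybb* on 7 of 8 and 2 of 7.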

How the results depend on the processing

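*Alas1* and *Hmox1* kept their sign under all alternatives; with the dye swaps turned *Ftl1* was at 0.15, *Alas1* at -0.059 and *Hmox1* at -0.11. Their dye effects were then -0.24 for *Ftl1* and -0.33 for *Alas1*, by construction. Leaving out each array in turn, the treatment estimates ranged from -0.35 to -0.31 for *Alas1*, -0.49 to -0.33 for *Hmox1* and -0.26 to -0.19 for *Ftl1*, and the dye effect of *Hmox1* from -0.16 to 0.00014. The correlation of *Alas1* and *Hmox1* ranged from -0.27 without array 3 to 0.54 without array 1, that of *Alas1* and *Ftl1* from -0.22 to 0.034, and that of *Hmox1* and *Ftl1* from -0.040 to 0.17. For *Alas1* and *Ftl1* r was 0.083 after scaling, 0.062 after quantile normalization and 0.26 with orientation means removed. It was 0.031 in Cy5 and 0.73 in Cy3, values added after seeing the data. None passed, and the correlations were not rerun with the swaps turned.

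Counts of genes called for treatment, dye effect, and of probes called for each, were 4, 254, 10 and 545. They were 254, 4, 545 and 10 with the swaps turned, 11, 676, 23 and 1456 with array weights, and 0, 571, 2 and 1031 without arrays 7, 8 and 15. Treatment counts were 0 genes and 0 probes in Cy5 or Cy3 alone, 0 and 3 with numbers n and n + 8 averaged, and 8 genes with placeholders left in or with the probe of most values. Without single arrays they ranged from 0 to 7, 99 to 431, 4 to 13 and 185 to 874. Among the 106 other haem and iron genes, 0 were called for treatment except 5 with the swaps turned. For the dye effect 5 were called, against 0 with the swaps turned, 3 after quantile normalization, 8 with dim values left out or the probe of most values, 9 without arrays 7, 8 and 15, and 2 to 6 without single arrays. The causes were not tested unless named. Stability under the alternatives was also read for 61 genes, the fixed partners and the 2 highest and 2 lowest of each list. Of their 1872 values, 11 moved by over 1 SD over arrays and 1 became a call. That SD is a wide bar beside the median SE of 0.090. The 61 leave out the most alike genes and *Ciao1*, *Cybb*, *Esrra* and *Slc25a39*, whose dye effects would be treatment calls with the swaps turned.

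No paired analysis was possible because all arrays form 1 group, and nothing in the labels pairs them; averaging numbers n and n + 8 assumes that each swap repeats an RNA. The RNA level behind a spot is unknown, each of *Alas1*, *Hmox1* and *Ftl1* rests on 1 probe, and the direction of the ratio is read from placeholders.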
